A study of Saccharomyces cerevisiae with 5 samples.

Results

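The genes described here encode isoenzymes of 4 steps of glycolysis in budding yeast: GLK1, HXK1 and HXK2 for the phosphorylation of hexoses, TDH1, TDH2 and TDH3 for glyceraldehyde phosphate dehydrogenase (GAPDH), ENO1 and ENO2 for enolase, and CDC19 and PYK2 for pyruvate kinase. They were chosen by these functions, with earlier results of these data known. Of the 10 genes, 9 had a probe set annotated to that gene alone, and all 9 were kept in a table of 4824 genes; TDH2 was covered here only by probe sets that it shared with its paralogues. The cells were of the W303 strain background, and every culture carried PHO4-MYC::TRP1, a MYC-tagged copy of the phosphate-responsive transcription factor gene PHO4 with TRP1 as its marker, so no culture without the tag served as a control. Log-phase cells were kept for 3 h in PNB medium lacking phosphate and then for 80 min at 0, 0.01, 0.1, 1 or 10 mM phosphate. Affymetrix arrays were used, 1 per dose, which leaves every value without a replicate error. The spread used in the model fits is the scatter of the 5 arrays around a fitted pattern, drawn toward the scatter of all genes.

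Glycolysis turns glucose into pyruvate with a net gain of ATP. GAPDH is the step that takes up inorganic phosphate, and yeast carries several copies of the genes for many of its steps, which are used under different conditions. HXK2, ENO2 and CDC19 are known as the forms that serve fast growth on glucose, and TDH3 encodes the most abundant GAPDH. HXK1, GLK1 and PYK2 are known to be repressed by glucose, and TDH1 to be used by cells that grow slowly or are stressed.

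The deposited values are signals per probe set on a linear scale. The median signal of all probe sets lay between 17.0 and 25.5 on the 5 arrays and was highest at 0 mM. A background level of 11.4, the 40th percentile of all values, stood in for any lower value. Poly-A spike-in controls had a 10.4-fold lower signal at 10 mM than at 0 mM, so directions below are those of the deposited scaling. Ratios between genes on the same array do not change with a common factor for that array, except through values set to background. RNA integrity was followed by the signal of a gene's 3' end over that of its 5' end, which for ACT1 ran from 1.11 at 0.1 mM to 3.00 at 0.01 mM and for TBP from 1.51 at 10 mM to 4.52 at 0.01 mM. The RNA came from whole cultures, so fewer cells that express a gene and less RNA per cell cannot be told apart.

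Hexose phosphorylation had 2 genes with a large drop and 1 with none of that size. HXK1, for hexokinase 1, had signals of 280, 201, 20.5, 17.5 and 15.9 at 0, 0.01, 0.1, 1 and 10 mM, so the end doses differed 17.6-fold. Both arrays up to 0.01 mM were far above the other 3, which lay within a narrow range just over background. GLK1, for glucokinase, had signals of 759, 674, 123, 59.5 and 58.6 over the same doses, a 12.9-fold difference. Between 0.01 and 0.1 mM it differed 5.50-fold, and it was lower again at 1 mM, by a log2 difference of -1.04 from 0.1 mM. HXK2, for hexokinase 2, which also takes part in glucose repression, had signals of 565, 406, 493, 373 and 394. Its values at low and high doses overlapped, and its largest change, -0.47 on the log2 scale, lay between 0 and 0.01 mM. On a straight line in dose order HXK1 fell, with a slope of -1.18 ± 0.21 (log2 signal per dose step, SE, 5 arrays; adjusted p = 0.0395, limma with Benjamini-Hochberg adjustment over all genes). GLK1 fell with a slope of -1.09 ± 0.16 (adjusted p = 0.0395 in the same fit). For HXK2 the slope was -0.12 ± 0.09 (adjusted p = 0.401 in the same limma fit).

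The 2 GAPDH genes with probe sets of their own differed in the same way. TDH1 had signals of 1077, 1586, 85.0, 59.7 and 62.7 from 0 to 10 mM. It was 1.47-fold higher at 0.01 mM than at 0 mM and then 18.7-fold lower at 0.1 mM than at 0.01 mM. TDH3 had signals of 3142, 4385, 3241, 2466 and 2655, with the highest value also at 0.01 mM. Its value at 0.1 mM lay above that at 0 mM, so low and high doses overlapped. TDH1 fell along the doses, with a slope of -1.29 ± 0.28 (adjusted p = 0.0413, limma with Benjamini-Hochberg adjustment). The slope of TDH3 was -0.13 ± 0.10 (adjusted p = 0.387 in the same limma fit).

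Enolase, which makes phosphoenolpyruvate, showed a large difference in ENO1 and a smaller one in ENO2. The signals of ENO1 were 2557, 1849, 400.2, 296 and 258, so that the end doses were 9.90-fold apart. Those of ENO2 were 2279, 1859, 1778, 1536 and 1011, a 2.25-fold difference. ENO1 was lower at each higher dose, with its largest change between 0.01 and 0.1 mM (-2.21 on the log2 scale). ENO2 was also lower at each higher dose, but its largest change, -0.60, lay between 1 and 10 mM, as it did in 8.50% of all genes. ENO1 fell, with a slope of -0.93 ± 0.15 (adjusted p = 0.0395, limma with Benjamini-Hochberg adjustment). ENO2 did not pass, with a slope of -0.26 ± 0.09 (adjusted p = 0.0875 in the same limma fit).

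Pyruvate kinase is the last step of the pathway. CDC19, for the main pyruvate kinase, had signals of 2132, 2051, 1456, 1048 and 1379. Its lowest value was at 1 mM, and the 2 lowest doses lay above the other 3. PYK2, for the glucose-repressed form, had signals of 47.7, 33.0, 7.51, 5.17 and 5.85. The last 3 were below background, so PYK2 had a difference of at least 4.17-fold between 0 and 10 mM. PYK2 was kept in the table only through its signal at 0 and 0.01 mM, so a difference from the higher doses was built into its selection. With values at background set to that level, its slope was -0.56 ± 0.13 (adjusted p = 0.0438 in the limma fit), and that of CDC19 was -0.22 ± 0.10 (adjusted p = 0.164).

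**Figure D1:**
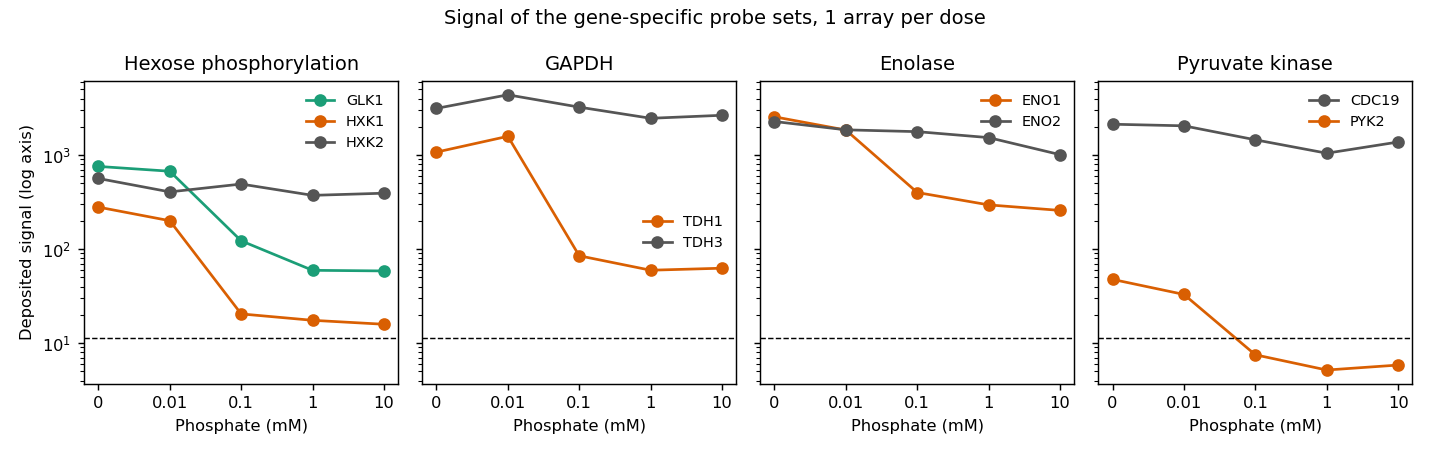
Deposited signal (log axis) of the 9 gene-specific probe sets against phosphate dose, 1 point per array, in 4 panels by enzyme step; the dashed line is the background level of 11.4. HXK1, GLK1, TDH1, ENO1 and PYK2 drop between 0.01 and 0.1 mM, while HXK2, TDH3, ENO2 and CDC19 keep signals of 373 or more on every array.

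Over the 9 measured genes, 5 fell along the doses (GLK1, HXK1, TDH1, ENO1 and PYK2), 0 rose and 4 did not pass the test, with 0 rising at an unadjusted p under 0.05 in limma. Among all 4824 genes 8.13% fell and 1.16% rose. Of the 8 that were at or above background on every array, which leaves out PYK2, 4 fell. At 10 mM 6 of the 9 were at least 2-fold lower than at 0 mM and 0 at least 2-fold higher, against 21.2% and 7.52% of all genes. The median log2 difference of the 9 genes was -2.06, against -0.26 for all genes. That middle value is PYK2's own, with its signal at 10 mM set to background, and PYK2 is also among the 6. The differences of HXK1, TDH1, GLK1 and ENO1 ran from -4.14 to -3.31. Those of ENO2, CDC19, HXK2 and TDH3 ran from -1.17 to -0.24.

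A line counts a sudden change in part as error, so 0 and 0.01 mM were also compared with 0.1, 1 and 10 mM, a grouping chosen with earlier results of these data known. This step comparison found 6 of the 9 lower and 0 higher from 0.1 mM on, against 22.0% and 11.4% of all genes (limma with Benjamini-Hochberg adjustment). Without PYK2, whose selection rested on the 2 lowest doses, 5 of 8 were lower. TDH1 had the largest step, -4.26 ± 0.26 (log2, SE, 5 arrays), or 19.2-fold (adjusted p = 0.000137 in limma). HXK1 followed at -3.73 ± 0.24 (13.3-fold), GLK1 at -3.25 ± 0.35 (9.49-fold) and ENO1 at -2.80 ± 0.27 (6.96-fold). PYK2 was lower by at least 3.47-fold, and CDC19 by 1.63-fold (adjusted p = 0.0462 in limma). HXK2, TDH3 and ENO2 did not pass, with steps of -0.20 ± 0.24, -0.42 ± 0.24 and -0.55 ± 0.28. After quantile normalization TDH3 and ENO2 passed too, at -0.71 and -0.95 (adjusted p = 0.0227 and 0.0337 in limma), which made 8 of 9 lower. The call of CDC19 was lost with arrays at 1 median (-0.38, adjusted p = 0.141 in limma), at equal hybridisation control signal, with the floor at the 20th percentile, without a filter and with a variance trend (adjusted p = 0.113, 0.0635, 0.0818 and 0.0554).

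Without the array of 0, 0.01 or 1 mM none of the measured genes passed the line test (limma), with 4, 5 and 6 at an unadjusted p under 0.05. Among all genes 0 passed in each of these fits as well. In the step comparison GLK1, HXK1, TDH1 and ENO1 were lower at the higher doses whichever array was left out, and CDC19 did not pass in any of these fits; without the array of 0 or 0.01 mM the low doses were 1 array, assumed to vary like the others. PYK2 was dropped by the filter without the array of 0 or 0.01 mM. With arrays at equal spike-in signal, HXK2, TDH3, ENO2 and CDC19 turned to higher values at the higher doses. In the step comparison 2 genes, HXK1 and TDH1, were still lower. Among all 4824 genes 3792 were higher and 32 lower there. Under that scaling the log2 differences between 10 and 0 mM of HXK1, TDH1 and GLK1 shrank from -4.14, -4.10 and -3.69 to -0.76, -0.73 and -0.32.

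Isoenzymes were then set against each other within each array, as the change of their log2 ratio over the doses; the level of 1 probe set was not compared with that of another. The ratio of TDH1 to TDH3 changed by 0.08, -3.71, -3.82 and -3.86 from its value at 0 mM at 0.01, 0.1, 1 and 10 mM, so TDH1 lost 14.5-fold against TDH3. That of HXK1 to HXK2 changed by -0.01, -3.58, -3.40 and -3.62, a 12.3-fold loss at 10 mM. For GLK1 to HXK2 the changes were 0.30, -2.43, -3.08 and -3.17, a 9.02-fold loss. In these 3 pairs nearly the whole change lay between 0.01 and 0.1 mM, with a further drop at 1 mM for GLK1. ENO1 to ENO2 changed by -0.17, -2.32, -2.54 and -2.14, a 4.40-fold loss at 10 mM that was smaller than at 1 mM. PYK2 lost at least 2.70-fold against CDC19. HXK1 and GLK1 had a ratio that changed by -0.31, -1.14, -0.33 and -0.45, so HXK1 was relatively lowest at 0.1 mM, the dose at which GLK1 was still between its high and low values.

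**Figure D2:**
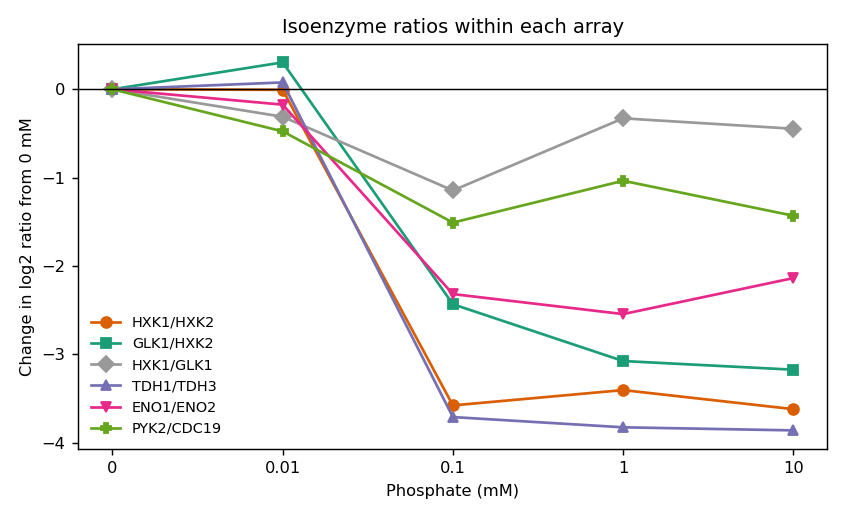
Change of the log2 ratio of 6 isoenzyme pairs from its value at 0 mM, against phosphate dose, 1 point per array. The ratios of TDH1 to TDH3 and HXK1 to HXK2 lie between -3.86 and -3.40 from 0.1 mM on, and that of HXK1 to GLK1 reaches -1.14 at its lowest.

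Of 8 planned pairs 6 could be computed, since TDH2 had no probe set of its own. An exact permutation test of the slope over the 120 orders of the 5 arrays (2-sided, smallest possible p = 0.0167) gave p = 0.05 for TDH1 to TDH3 and for GLK1 to HXK2. The exact p was 0.0833 for HXK1 to HXK2 and for PYK2 to CDC19, 0.117 for ENO1 to ENO2 and 0.617 for HXK1 to GLK1. After Benjamini-Hochberg adjustment over the 6 pairs the lowest exact p was 0.125, so no pair passed. In a limma fit added after seeing the data, with the ratios appended to the table of all genes, the slopes of 3 pairs passed: -1.16 ± 0.26 for TDH1 to TDH3 (adjusted p = 0.0414), -1.06 ± 0.25 for HXK1 to HXK2 (adjusted p = 0.0437) and -0.97 ± 0.20 for GLK1 to HXK2 (adjusted p = 0.0395). As a step in the same limma model, 4 pairs without PYK2 passed, with ENO1 to ENO2 at -2.25 ± 0.28 (adjusted p = 0.0017). The step of PYK2 to CDC19, -1.09 ± 0.31, is a description, since PYK2 was kept through the 2 lowest doses. HXK1 to GLK1 did not pass, at -0.48 ± 0.35 (adjusted p = 0.317 in limma).

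Coding sequences of these paralogues are close to each other, and 4 probe sets were annotated to a gene of interest together with another gene. These sets name no single gene and entered no test. A set shared by TDH2 and TDH3 had signals of 2482, 3142, 1113, 1140 and 966, with the ends 2.57-fold apart, while those of the set of TDH3 alone were 1.18-fold apart. Between 0.01 and 0.1 mM the shared set changed by -1.50 (log2) and the TDH3 set by -0.44, whose largest change was 0.48 from 0 to 0.01 mM. A set shared by TDH1, TDH2 and TDH3 had signals of 1739, 2616, 1170, 1107 and 1182, a 1.47-fold difference. All 4 GAPDH sets were highest at 0.01 mM.

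The set shared by ENO1 and ENO2 had signals of 1748, 2312, 917, 540 and 485. Its 3.60-fold difference between the ends lay between the 9.90-fold of ENO1 and the 2.25-fold of ENO2. At 0.01 mM it was 1.32-fold higher than at 0 mM, whereas both gene-specific sets had lower signals there, with log2 differences of -0.47 and -0.29. A set shared by GLK1 and its neighbour YCL042W had signals of 99.3, 35.2, 11.5, 2.86 and 7.66, the last 2 below background, and at 10 mM was lower by at least 8.69-fold. The sets of TDH3, ENO1 and ENO2 carry the array's suffix i, which marks sets with fewer unique probes than usual; how far each reads its paralogue was not tested. A set shared by ERR1, ERR2 and ERR3, genes related to enolase, had signals of 19.2 and 18.8 at the lowest 2 doses and was below background at the others.

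**Figure D3:**
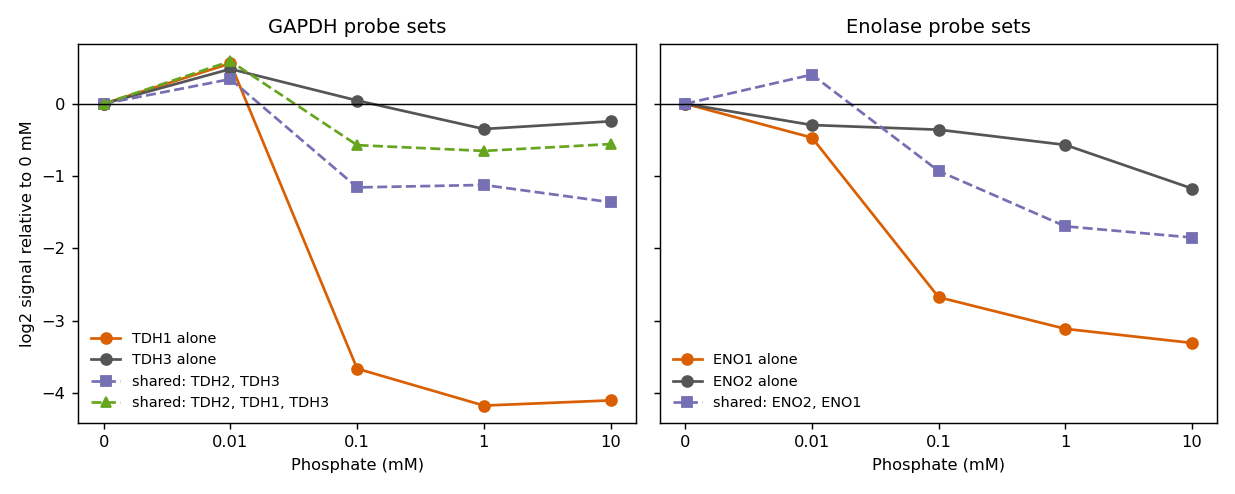
Log2 signal relative to 0 mM against phosphate dose for GAPDH (left) and enolase (right), 1 point per array; solid lines are sets of 1 gene and dashed lines sets shared between paralogues. At 10 mM the shared sets lie at -1.36 and -0.56 for GAPDH, between TDH1 at -4.10 and TDH3 at -0.24, and at -1.85 for enolase.

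The doses that parted the arrays for these genes also did so for many others. For 6 of the 9 the largest change between neighbouring doses lay from 0.01 to 0.1 mM, as for 50.6% of all genes. In 7 of the 9, with HXK2 and TDH3 as the exceptions, both arrays up to 0.01 mM lay above the other 3, as in 37.3% of all genes. TDH1 and TDH3 were the 2 genes of the 9 with a higher signal at 0.01 mM than at 0 mM, which 28.5% of all genes had. Both RNA integrity ratios were highest on that array, at 3.00 for ACT1 and 4.52 for TBP, and their part in these values was not tested.

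The remaining enzymes of glycolysis were taken from a list of 10 genes, all measured. Of these 3 fell, 0 rose and 7 did not pass, against 8.13% and 1.16% of all genes that fell and rose. In the step comparison 7 were lower and 0 higher, against 22.0% and 11.4% of all genes, and the median log2 difference was -0.96. PGK1, for phosphoglycerate kinase, had signals of 1444, 2299, 529, 443 and 344 and fell (adjusted p = 0.0448, limma with Benjamini-Hochberg adjustment). Its signal was highest at 0.01 mM. On this list 5 of 10 genes were higher at 0.01 than at 0 mM, against 28.5% of all genes. GPM2, a homologue of phosphoglycerate mutase, had signals of 102 and 104 at the lowest 2 doses and was below background from 0.1 mM on, at least 8.95-fold lower. It was kept only through those 2 doses and is part of both counts, those that fell and those that were lower. GPM1, for the main phosphoglycerate mutase, had 2153, 2447, 1189, 978 and 1098 and did not pass on the line. In the step comparison GPM1 was lower (adjusted p = 0.0078 in limma). EMI2, the paralogue of GLK1, had 141, 135, 46.4, 41.2 and 30.8 and fell, with a 4.59-fold difference against the 12.9-fold of GLK1. PFK2, for the beta subunit of phosphofructokinase, had 414 at 0 mM and 183 at 10 mM, a 2.26-fold difference. It did not pass on the line (adjusted p = 0.0554 in limma) but was lower in the step comparison (adjusted p = 0.0316 in limma). TPI1, for triose phosphate isomerase, had a 1.29-fold difference and its highest signal, 3013, at 0.01 mM.

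**Figure D4:**
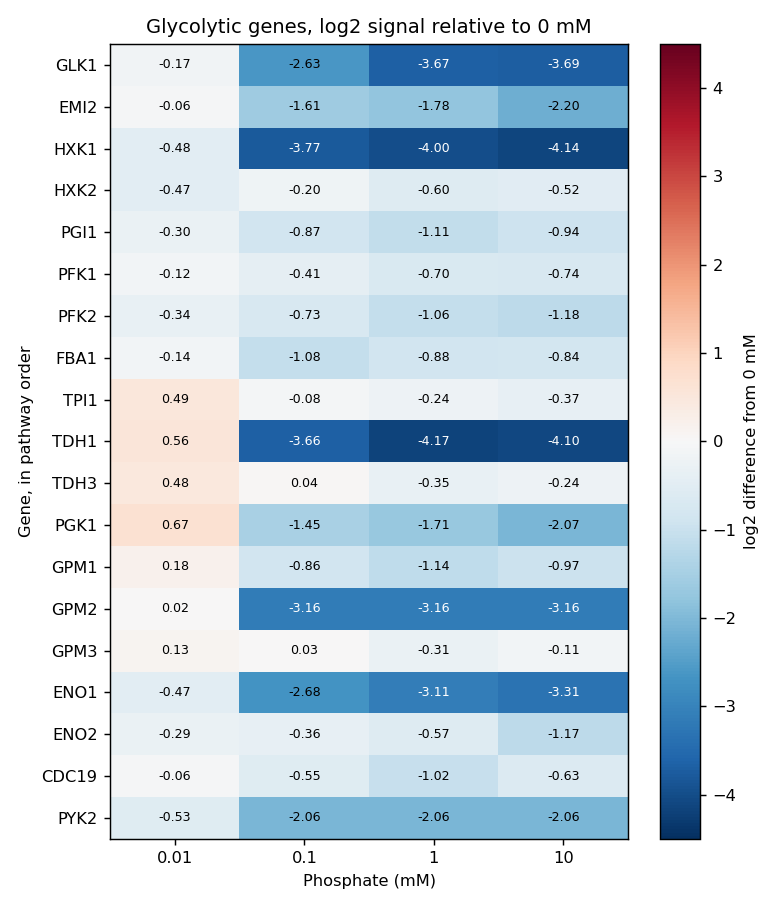
Log2 signal relative to 0 mM at each dose (columns) for 19 glycolytic genes in pathway order (rows), with values below background set to that level for GPM2 and PYK2 at 0.1 mM and above. The darkest cells are those of HXK1, GLK1, TDH1, GPM2 and ENO1 from 0.1 mM on, and TPI1, TDH1, TDH3 and PGK1 are higher at 0.01 mM by 0.48 to 0.67.

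Genes that run the pathway in reverse or refill the citric acid cycle formed a list of 7, all measured. Of these 3 fell, 0 rose and 4 did not pass, against 8.13% and 1.16% of all genes that fell and rose, and 5 were lower in the step comparison, against 22.0%. MDH2, for the cytosolic malate dehydrogenase, did not pass, with signals of 238 and 294 at the end doses. PYC1, for a pyruvate carboxylase, had signals of 286, 187, 96.8, 91.7 and 52.1, a 5.49-fold difference. Its paralogue PYC2 had a 2.60-fold difference that did not pass on the line but was lower in the step comparison (adjusted p = 0.0157 in limma). FBP1, for fructose bisphosphatase, which opposes phosphofructokinase, had 52.1 and 32.7 at the lowest 2 doses and was below background at the others, at least 4.55-fold lower. MLS1, for malate synthase of the glyoxylate cycle, was at least 4.68-fold lower, with 53.5 and 44.1 at the lowest 2 doses. PCK1, for the carboxykinase that makes phosphoenolpyruvate, had 85.9, 32.9, 25.1, 17.6 and 27.7 and did not pass (adjusted p = 0.105 in limma). FBP1, MLS1 and GPM2, like PYK2, were kept only through their values at the lowest 2 doses. Lower values at the higher doses were thus built into their selection, and the counts of their lists include them.

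Among 12 genes that regulate glycolytic genes or flux, HXK2 included, 3 fell and 0 rose on the line, against 8.13% and 1.16% of all genes. In the step comparison 3 of 12 were lower, a share near the 22.0% of all genes. GCR1, the transcription factor known to activate most glycolytic genes, had signals of 89.9, 62.2, 16.6, 11.6 and 15.5 and fell, with a 5.82-fold difference. TYE7, a further activator of glycolytic genes, had 68.8, 39.8, 14.3, 16.0 and 12.8, a 5.39-fold difference, and fell as well. GCR2, the partner of GCR1, had 21.4, 19.6, 23.5, 32.7 and 27.6, and RAP1, which binds many glycolytic promoters, had 34.3, 31.5, 44.5, 45.4 and 49.0; neither passed. FBP26, for an enzyme that breaks down a sugar bisphosphate that activates phosphofructokinase, was 3.05-fold lower at 10 mM and fell. PFK26, which makes that activator, had 62.5 at 0 mM and between 18.1 and 31.3 elsewhere, and did not pass. MIG1, the glucose repressor that acts with HXK2, had 41.0 at 0 mM and between 12.8 and 16.5 at the other doses, and did not pass either.

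For each gene the 2 most similar courses were sought among 2412 genes with a log2 range of at least 1, by the root mean square distance between log2 signals centred on their own mean over the 5 arrays. ENO1 was closest to TSA2, a peroxiredoxin gene, and SOD2, the mitochondrial superoxide dismutase gene, at distances of 0.06 and 0.08. HXK1 was closest to HPF1, a cell wall mannoprotein gene, and PAI3, which encodes an inhibitor of the vacuolar proteinase A, at 0.13 and 0.14. GLK1 was closest to YDL057W and to VTC3 of the vacuolar transporter chaperone complex, at 0.19 and 0.22. TDH1 was closest to GIT1 and SPL2, at 0.23 and 0.25, both of which were below background from 0.1 mM on. PYK2 was closest to YPR172W and BDH2, at 0.02 and 0.05, all 3 being at background on the same 3 arrays. ENO2 was closest to PET123 and to the fatty acid desaturase gene OLE1, at 0.05 and 0.07, and CDC19 to MLC2 and OSH2, at 0.03 and 0.05. HXK2 and TDH3 had log2 ranges under 1 themselves; MED6 and MSM1 lay at 0.15 and 0.16 from HXK2, and MSY1 and YIR042C at 0.08 and 0.09 from TDH3. YDL057W and PET123 were at background at 10 mM and YIR042C at 1 mM, so part of their match rests on the floor. Between the members, GLK1 and ENO1 were 0.31 apart and HXK1 and TDH1 0.43, while TDH1 and TDH3 were 1.88 apart.

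Genes next to these on the chromosome were looked at as well. Of the 18 protein-coding neighbours in the RefSeq R64 annotation 13 were measured, and both counts were near the shares of all genes, 8.13% that fell and 22.0% lower in the step comparison. PUT4 beside PYK2 was the 1 that fell, with a log2 difference of -2.25. In the step comparison 3 were lower: PUT4, COQ6 beside ENO1 (-1.44) and GID7 beside GLK1 (-0.58). The measured neighbour of HXK1, RPN12, and that of TDH1, IRC8, had differences of -0.56 and -0.57 and did not pass.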

How the data were processed

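Biotin-labelled RNA of 5 cultures was hybridised to 1 array each. The deposited values are linear intensity values per probe set. The authors made them with MAS5, per the submitters' processing notes. Version, scaling target and filters are not stated there. All 5 value columns were mapped to samples by their labels.

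Of 9335 probe sets, 6504 were annotated to 1 gene and were named by gene identifier through RefSeq assembly R64; no build is stated for the arrays, so no coordinates are given. Values below the 40th percentile (11.4) were set to it, log2 was taken, 5083 probe sets at or above it on at least 2 arrays were kept, and sets of a gene were averaged. Lines in dose order and the step comparison were fitted to all 4824 genes with limma 3.58.1 in R 4.3.3 (empirical Bayes, 7.64 degrees of freedom, Benjamini-Hochberg at 0.05). In simulations of 4824 genes, 50 of them changed per size, the line fit recovered 0, 26, 48 and 44 of those changed by 1, 2, 3 and 4 (log2), and the step fit 6, 42, 49 and 50. Among unchanged genes 2 and 7 were called. Each fit was given changes of its own shape with independent noise, so abrupt changes were not tried with the line. The number of arrays limits the precision.

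The members, lists, pairs and tests were chosen with earlier results of these data known. All genes of interest with every probe set were named; so were, from each list, the 4 genes with the largest differences, PGK1, EMI2 and the 2 nearest courses per gene. GPM1, TPI1, GCR2, RAP1, MIG1, PYC2, MDH2, GND1, SOL3, TAL1, TKL1, ZWF1, ERR1 to ERR3 and chromosome neighbours were named after their values were seen. Alternatives were other scalings (median, quantile, spike-in and hybridisation controls), a floor at the 20th or at the 60th percentile, a pseudocount, no filter, a variance trend, the brightest probe set, log10 dose and each array left out.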

Additional observations from a re-analysis of the deposited data

How the results depend on the processing

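No paired analysis was possible because each dose had 1 array. With each array left out in turn, the number of measured genes that fell on the line ranged from 0 to 5, the step of HXK2 from -0.44 to 0.036 and the slope of the ratio of HXK1 to GLK1 from -0.18 to 0.041. No measured gene passed the line test with arrays at 1 median, after quantile normalization, with the 60th percentile floor or without a filter. In these settings, in this order, 5, 8, 6 and 6 had an unadjusted p under 0.05 in limma. Among all genes 0, 2, 0 and 1 fell there, against 392 as deposited, and the cause was not tested. With arrays at 1 median the slope of HXK2 was 0.0052, its step 0.12 and the difference of TDH3 between 10 and 0 mM 0.23. The slope of the ratio of HXK1 to GLK1 was 0.023 after quantile normalization, 0.22 with the floor at the 60th percentile and 0.048 with a pseudocount. With arrays at equal poly-A spike-in signal, which shifts the median difference of all genes to 3.12, 1 measured gene fell and 4 rose on the line. In the step comparison 2 were lower and 4 higher. Among all 4824 genes 23 fell and 4315 rose on the line, and 32 were lower and 3792 higher in the step comparison. Under that scaling the slopes of HXK2, TDH3, ENO2 and CDC19 were 0.70, 0.68, 0.55 and 0.59, and their steps 1.98, 1.76, 1.63 and 1.47. Their differences between 10 and 0 mM were 2.86, 3.13, 2.21 and 2.75, and that of ENO1 was 0.069. PYK2 had a slope of 0.25, a step of 0.39 and a difference of 1.32. For PYK2 these are upper limits, because its values below background were set to that level before the arrays were shifted. The limma fits of the ratios, added after seeing the data, gave slopes of -1.06, -0.97 and -1.16 for HXK1 to HXK2, GLK1 to HXK2 and TDH1 to TDH3, and steps of -3.53, -3.05 and -3.84 for these, -2.25 for ENO1 to ENO2 and -1.09 for PYK2 to CDC19. Log10 dose, with 0 mM set to 0.001 mM, has the same spacing as dose order and gave the same values.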

Other observations

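The pentose phosphate pathway, which branches off after hexose phosphorylation and supplies NADPH and ribose, also has paralogous gene pairs, and their members differed over the doses. Of its 12 measured genes 4 fell and 0 rose on the line (limma with Benjamini-Hochberg adjustment), against 8.13% and 1.16% of all genes. In the step comparison 6 were lower and 2 higher, against 22.0% and 11.4%. GND2, for the minor phosphogluconate dehydrogenase, had signals of 320 and 126 at 0 and 0.01 mM and was below background from 0.1 mM on, at least 28.0-fold lower at 10 mM. GND1, for the main form, had 231, 287, 596, 560 and 604 and was higher in the step comparison (adjusted p = 0.0053 in limma). SOL4, for a phosphogluconolactonase, had 155 at 0 mM and 13.2 at 0.1 mM and was below background at 1 and 10 mM. It fell, whereas SOL3, with 196 and 215 at the end doses, did not pass.

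NQM1, the paralogue of the transaldolase gene TAL1, had signals of 150, 55.9, 19.1, 14.1 and 12.9 and fell, with an 11.6-fold difference, while TAL1, with 287 and 259 at the end doses, did not pass. TKL2, for the minor transketolase, had 58.8 and 30.3 at the lowest 2 doses and was below background at the others, at least 5.14-fold lower. TKL1, for the main transketolase, had 417, 354, 784, 601 and 606 and was higher in the step comparison (adjusted p = 0.0331 in limma). ZWF1, for the first enzyme of the pathway, had 222, 173, 43.0, 52.4 and 57.0 and was lower in the step comparison without passing on the line. GND2 and TKL2 were kept only through their values at the lowest 2 doses, so lower values at the others were built into their selection. Both are among the genes of this pathway counted above as fallen and as lower. The differences between paralogues were not tested.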
